A study of Mus musculus with 6 samples.

Results

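Prss53 and 7 genes that lie beside it on mouse chromosome 7 were followed in RNA from whole pancreatic islets. The 8 genes, in chromosome order Zfp668, Zfp646, Prss53, Vkorc1, Bckdk, Kat8, Prss8 and Prss36, were found by symbol among the 54556 genes of the deposited table, and all 8 passed the filter on low values. Prss53 was picked because it had fallen in these same libraries, so its difference is given here as a description without a test. The other 7 were picked by their position. The question was whether the fall was limited to Prss53. There were 3 libraries labelled β-Mettl3-KO, from mice carrying Mettl3 flox/flox with RIP-Cre (Cre recombinase driven by a rat insulin promoter), and 3 from Mettl3 flox/flox mice without it. All mice were C57BL/6, were 8 weeks old, were fed normal chow and carried the floxed alleles. There was no group with RIP-Cre on unfloxed Mettl3, which means that Cre itself and the deletion cannot be told apart. The labels do not say whether islets of several animals were pooled or name the animals. The p-values therefore measure the spread between these libraries, which may be technical.

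Prss53 encodes a secreted serine protease with a pair of trypsin-like domains, also called polyserase-3. Prss8 encodes prostasin, a membrane-anchored protease of epithelia that activates the epithelial sodium channel, and Prss36 encodes polyserase-2, which carries several protease domains in a single chain. Vkorc1 encodes vitamin K epoxide reductase, the target of warfarin, which recycles vitamin K for the γ-carboxylation of clotting factors and other proteins. Bckdk encodes the kinase that switches off the branched-chain ketoacid dehydrogenase of mitochondria. Kat8, also called MOF, acetylates histone H4 as part of the MSL and NSL complexes. Zfp646 and Zfp668 encode C2H2 zinc-finger proteins.

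The genes share sequence, and this bears on every read assigned to them (GRCm38 coordinates throughout). Prss53 (ENSMUSG00000044139) lies on the minus strand from 127885841 to 127890970. Its last 156 bases, none of them coding, overlap the end of Zfp646 on the opposite strand, from 127885841 to 127885996. A read-through gene model, Gm21974, runs on the minus strand from 127886227 to 127895454 through Prss53 into Vkorc1. All 2037 exon bases of Gm21974 lie within exons of these members, 1636 in Prss53 and 401 in Vkorc1. Gm21974 was listed at 0 reads in all 6 libraries. That leaves Prss53 with 498 of its 2134 exon bases (23.3%) free of the model on its own strand, or 342 (16.0%) when the overlap with Zfp646 is also taken off, and Vkorc1 with 439 of 840 (52.3%). How reads in shared bases were assigned is not given in the sources used here. If they were discarded, the levels of Prss53 and Vkorc1 were understated in every library alike, while their differences between groups were computed over the same bases. Zfp668 and Zfp646 share 608 exon bases on opposite strands, and Kat8 and Prss8 share 122. Bckdk and Prss36 share no exon base with another gene.

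**Figure D1:**
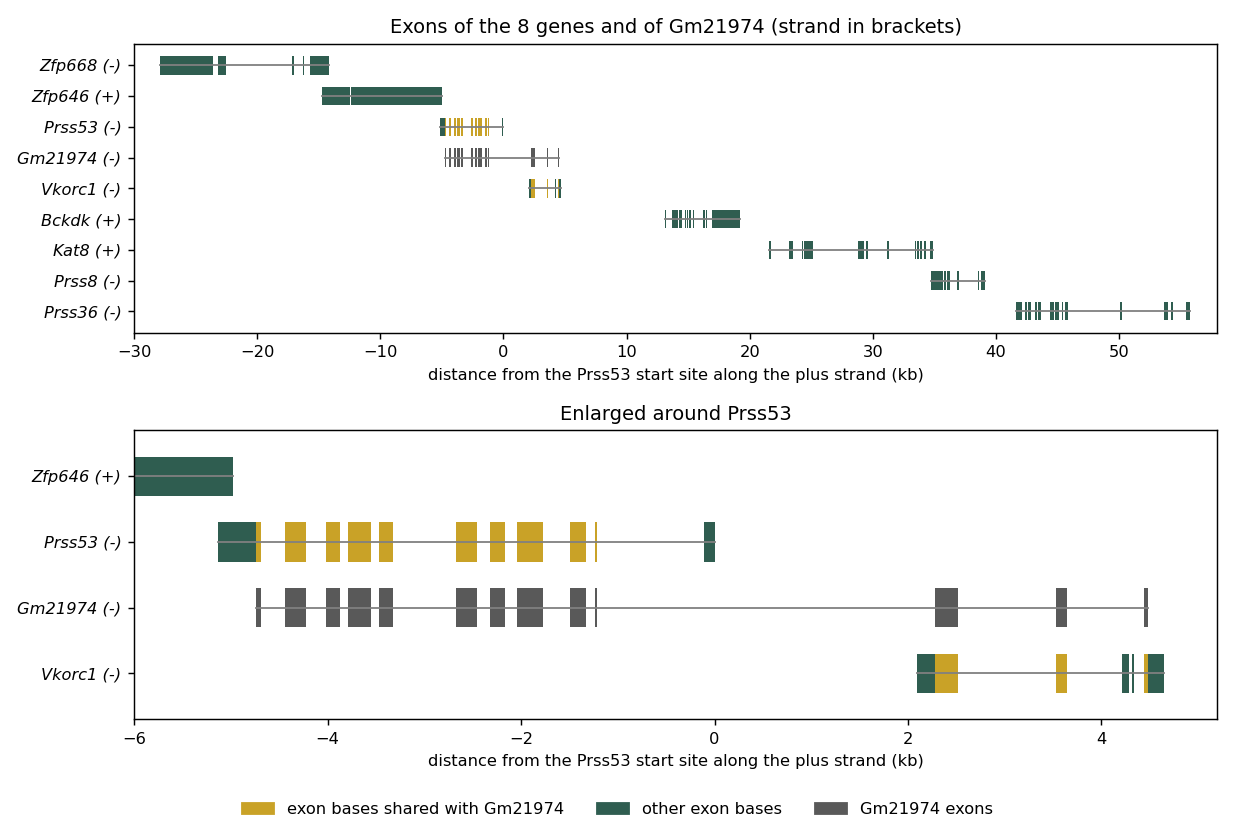
Exons of the 8 genes and of the read-through model Gm21974, by distance in kb from the start site of Prss53 along the plus strand; the lower panel enlarges the part around Prss53. Yellow marks the 1636 exon bases of Prss53 and the 401 of Vkorc1 that also belong to Gm21974, green the other exon bases and grey the model itself.

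The region just before a gene's start is shown for 3 of the members, because Prss53 fell far, Vkorc1 fell less and Kat8 did not pass, although Vkorc1 lies 2.092 kb and Kat8 21.545 kb from Prss53. Each sequence is the RefSeq promoter window of GRCm38.p6, 250 bases before to 50 after the start, printed 5′ to 3′ on the gene's strand, and 6 of the 8 members had such a window. Capitals mark TAATTA, the core recognised by many homeodomain factors, and GGGCGG or its reverse complement, the GC box.
Prss53, chr7:127890921-127891220, minus strand: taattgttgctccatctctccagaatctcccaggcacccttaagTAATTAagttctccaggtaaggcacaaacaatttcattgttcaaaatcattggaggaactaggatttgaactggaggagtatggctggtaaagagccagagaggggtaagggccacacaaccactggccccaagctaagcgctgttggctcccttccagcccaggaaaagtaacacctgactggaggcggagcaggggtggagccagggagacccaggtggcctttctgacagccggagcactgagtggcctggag
Vkorc1, chr7:127895568-127895867, minus strand: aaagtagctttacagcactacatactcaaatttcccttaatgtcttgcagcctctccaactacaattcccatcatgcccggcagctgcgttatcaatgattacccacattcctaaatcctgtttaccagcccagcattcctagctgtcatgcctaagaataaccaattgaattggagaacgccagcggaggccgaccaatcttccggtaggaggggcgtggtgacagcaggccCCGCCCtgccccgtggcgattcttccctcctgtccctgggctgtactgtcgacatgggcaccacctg
Kat8, chr7:127912267-127912566, plus strand: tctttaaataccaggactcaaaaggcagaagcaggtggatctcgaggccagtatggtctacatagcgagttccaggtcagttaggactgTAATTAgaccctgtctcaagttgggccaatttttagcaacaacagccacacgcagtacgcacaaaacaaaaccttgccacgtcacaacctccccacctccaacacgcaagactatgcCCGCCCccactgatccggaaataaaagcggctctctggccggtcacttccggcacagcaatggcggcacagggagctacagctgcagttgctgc
Of 32851 promoter windows of that length, 5.29% held TAATTA and 35.7% held a GC box on either strand. The windows of Prss53 and Kat8 printed here each held TAATTA once, with its first base 206 and 161 bases before the start. Kat8 and Zfp668 had 2 windows each, and TAATTA was in none of the other windows of the members. Neither Prss53 nor Bckdk held a GC box, Vkorc1, Prss36 and both windows of Kat8 held 1 each, and the windows of Zfp668 held 0 and 2. The Prss53 window had 3 CpG dinucleotides, against a median of 7 over all windows, 11 for Vkorc1, 14 for Bckdk, 12 and 5 for Kat8, 19 and 27 for Zfp668 and 5 for Prss36. TGCTGAC, a half-site of Maf factors, and CATCTG, an E-box of the kind found in insulin promoters, were absent from all windows of these members and were present in 4.67% and 17.2% of all windows. TATAAA, the TATA box, was found once in Bckdk and was absent from the other members, against 13.6% of all windows. CCAAT was found in Prss53, Vkorc1, Bckdk, Kat8 and Prss36, against 37.4% of all windows. Both strands were searched, and no matches of different motifs overlapped in these windows. These are matches of letters, and no binding was measured.

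The libraries held 16719393 to 18387313 reads when labelled knockout and 16398862 to 17691055 when flox/flox. Mettl3 itself had 4.06 to 4.20 FPKM (read counts divided by gene length and by a size for the library) in the libraries labelled knockout and 2.89 to 3.93 in flox/flox libraries, a log2 difference of 0.25 ± 0.11 (SE, n = 3 each, limma adjusted p = 0.12). Reads summed over the gene do not show the loss of some exons, so this level does not check the label. Of 14497 genes tested with limma on log2(FPKM + 0.5), 2446 passed as higher and 2489 as lower (labelled knockout against flox/flox) at an adjusted p under 0.05. That is 34.0% in all, with 16.9% higher and 17.2% lower. Scaling by each library's own read total turned that split into 7636 higher and 709 lower, or 52.4% and 4.87% of 14572 genes (57.3% in all), and the median log2 difference of all tested genes moved to 0.36, against -0.0045 with the deposited scaling. Among marker genes, 10 of 11 of β cells fell, 13 of 14 of enterocytes and 10 of 10 of lymphocytes rose, and 12 of 12 of acinar cells and 8 of 8 of endothelium fell. Many of the enterocyte and lymphocyte genes passed the filter on low values only through the libraries labelled knockout. The 5 tested for α, δ and PP cells lay between -0.58 and 0.43 and did not pass. In whole islets, fewer cells of a type and less RNA per cell cannot be told apart.

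Prss53 stood at 11.0, 12.2 and 11.2 FPKM in replicates 1 to 3 labelled knockout, against 88.8, 77.6 and 75.6 FPKM in flox/flox replicates 1 to 3. Every library labelled knockout lay far below every flox/flox library, and the 3 libraries of each group lay close together. These values came from 491, 508 and 496 reads labelled knockout and 2867, 2394 and 2395 flox/flox reads. The means were 11.5 ± 0.613 FPKM labelled knockout and 80.7 ± 7.11 FPKM flox/flox (SD, n = 3 each), so the libraries labelled knockout held 14.2% of the flox/flox level. On the log2 scale the difference was -2.76 ± 0.08 (SE), and it was -2.36 with own-read scaling. Ranked by mean FPKM over all 54556 genes, Prss53 was 3570th in the libraries labelled knockout and 337th in the flox/flox libraries. Of the 14497 tested genes, 9 had a larger fall. If its reads came only from the 498 bases outside Gm21974, its level over that length would be 49.2 ± 2.63 FPKM labelled knockout and 345.7 ± 30.5 flox/flox, with the same ratio.

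**Figure D2:**
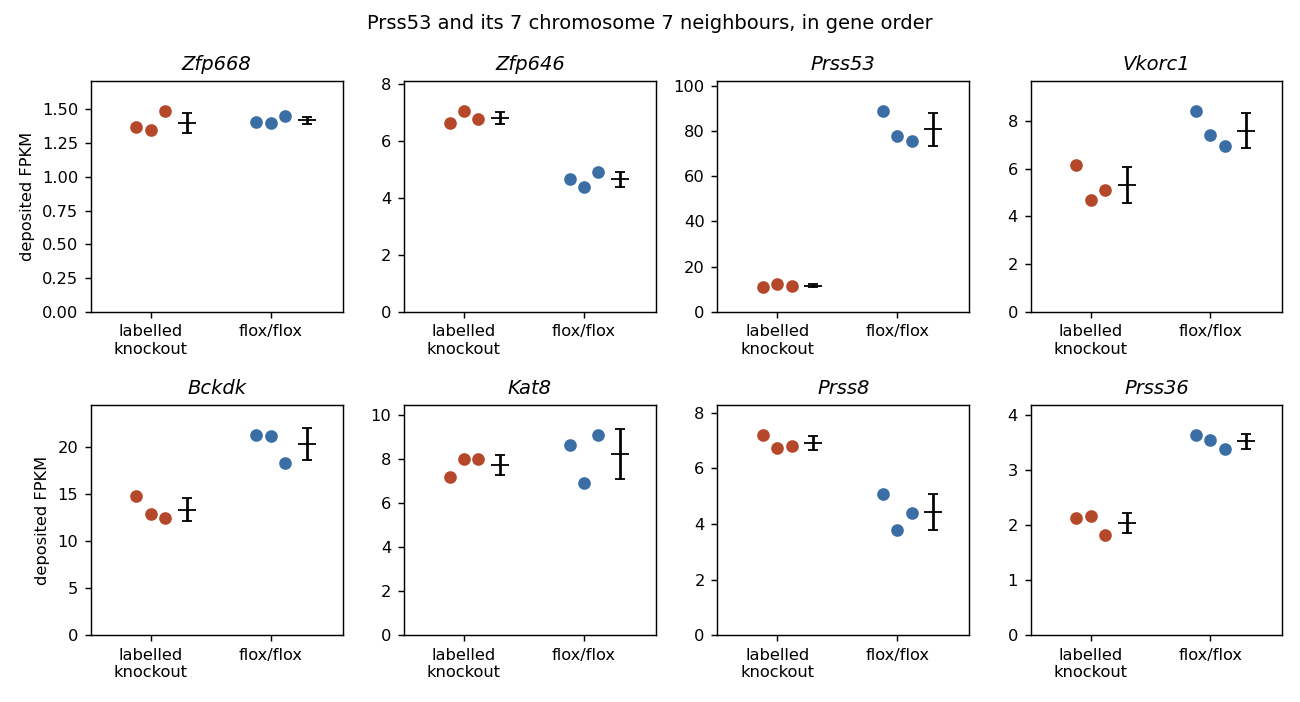
Deposited FPKM of the 8 genes in each library (points) with the group mean and SD beside them (bars, n = 3), libraries labelled knockout on the left of each panel and flox/flox on the right; each vertical axis starts at 0 and has its own range. Prss53 lies between 11.0 and 12.2 FPKM labelled knockout and between 75.6 and 88.8 FPKM flox/flox, while the groups of Zfp668 and Kat8 overlap.

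The 7 neighbours did not move as a block. Vkorc1, Bckdk and Prss36 fell, Zfp646 and Prss8 rose, and Zfp668 and Kat8 did not pass. The 5 that passed, out of 7, compare with 34.0% of all tested genes, and the median log2 difference of the 7 was -0.08, against -0.0045 over all tested genes. All 5 had groups that did not overlap, as had 50.5% of all tested genes. Their log2 differences ran from -0.66 for Prss36 to 0.60 for Prss8, and 0 of the 7 fell by 1 or more, a fall seen in 3.14% of tested genes. With own-read scaling Zfp646 and Prss8 passed as higher, at 0.88 and 0.97, and Prss36 as lower, 3 of the 7 beside 57.3% of all genes. Without the replicates 2 and 3 labelled knockout, which held the most enterocyte reads, 0 of the 7 passed in limma, 4 had an unadjusted p under 0.05, and the directions of the 5 stayed the same.

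Zfp646 overlaps the end of Prss53 and rose where Prss53 fell. It had 6.62, 7.05 and 6.77 FPKM in the libraries labelled knockout and 4.68, 4.38 and 4.90 FPKM in flox/flox libraries. Each library labelled knockout lay above all flox/flox libraries. The log2 difference was 0.51 ± 0.07 (SE, n = 3 each, limma adjusted p = 0.00307), from 1341 to 1366 reads per library labelled knockout and 615 to 707 per flox/flox library. Zfp668, which starts beside Zfp646 and runs the other way, had 1.37, 1.35 and 1.49 FPKM in the libraries labelled knockout against 1.40, 1.40 and 1.45 FPKM in flox/flox libraries. Its groups overlapped, and the difference of -0.01 ± 0.13 did not pass (limma adjusted p = 0.95), with a 95% interval from -0.33 to 0.30. With own-read scaling its difference was 0.29 (limma adjusted p = 0.11).

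Vkorc1 is the next gene upstream of Prss53 on the same strand, 2092 bases away. It had 6.17, 4.69 and 5.11 FPKM in the libraries labelled knockout and 8.42, 7.42 and 6.98 FPKM in flox/flox libraries. The groups did not overlap, but the highest value labelled knockout came near the lowest flox/flox value. The log2 difference was -0.48 ± 0.12 (SE, n = 3 each, limma adjusted p = 0.0216). The reads themselves were few and alike, 108, 77 and 89 labelled knockout and 107, 90 and 87 flox/flox. The call was lost without replicate 2 or 3 labelled knockout or without flox/flox replicate 1 or 2 (limma adjusted p = 0.0507 to 0.0775), and with own-read scaling the difference was -0.11 (limma adjusted p = 0.419).

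Bckdk had 14.8, 12.9 and 12.4 FPKM in the libraries labelled knockout and 21.3, 21.2 and 18.3 FPKM in flox/flox libraries. All 3 libraries labelled knockout were lower than all flox/flox libraries, with a log2 difference of -0.58 ± 0.10 (SE, n = 3 each, limma adjusted p = 0.00526). With own-read scaling it was -0.19 (limma adjusted p = 0.0971). Kat8 had 7.20, 8.01 and 7.99 FPKM labelled knockout and 8.66, 6.94 and 9.11 FPKM flox/flox, where the flox/flox libraries spanned those labelled knockout. Its difference of -0.08 ± 0.11 did not pass (limma adjusted p = 0.62), with a 95% interval from -0.34 to 0.19, and it was 0.30 with own-read scaling (limma adjusted p = 0.0562).

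The other proteases of the locus went opposite ways. Prss36 had 2.13, 2.16 and 1.83 FPKM in the libraries labelled knockout and 3.63, 3.55 and 3.37 FPKM in flox/flox libraries. The groups lay well apart, with a log2 difference of -0.66 ± 0.10 (SE, n = 3 each, limma adjusted p = 0.0034), and with own-read scaling it was -0.32 (limma adjusted p = 0.0262). Prss8 had 7.20, 6.74 and 6.80 FPKM labelled knockout and 5.07, 3.77 and 4.40 FPKM flox/flox. All libraries labelled knockout were higher, with a log2 difference of 0.60 ± 0.11 (SE, n = 3 each, limma adjusted p = 0.00724).

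Prss8 is an epithelial gene, and epithelial markers moved in the same libraries. The 16 enterocyte markers summed to 513.5, 2357 and 1302 CPM of each library's own reads in replicates 1 to 3 labelled knockout, against 206.7, 177.6 and 192.3 CPM in flox/flox libraries. Of those markers 3 had no read in any flox/flox library, Alpi, Cdx1 and Cdx2. Others were not low there, since Vil1, Anpep and Lgals4 averaged 28.1, 18.5 and 10.9 FPKM in flox/flox libraries, against 0.096 for Fabp2. Fabp2 and Rbp2, lipid and retinol carriers of enterocytes, were higher by 6.28 and 6.26 on the log2 scale. Both passed the filter on low values only through the libraries labelled knockout. They were also picked as the largest changes of their list, so no test is given for them. The 11 markers of ducts and general epithelium summed to 1449 to 1597 CPM labelled knockout and 822.8 to 1076 CPM flox/flox, with 3 rising, 1 falling and 6 not passing of 10 tested. Prss8 was highest in replicate 1 labelled knockout, the library of that group with the lowest enterocyte sum. The part of these cells in the rise of Prss8 was not tested.

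Within a library, a ratio of 2 genes does not depend on how the library was scaled. Averaged over the 7 neighbours, the log2 ratio of Prss53 to its neighbour was 1.11, 1.32 and 1.21 in the libraries labelled knockout and 3.97, 3.93 and 3.83 in flox/flox libraries. The difference of the mean log2 ratios was -2.70, where Prss53 alone was at -2.76, and the groups lay far apart. Against single neighbours the change of the log2 ratio ran from -2.02 against Prss36 to -3.47 against Prss8, and the groups did not overlap for any of the 7. That lack of overlap mostly restates the size of the fall for which Prss53 was picked. In flox/flox libraries Prss53 stood above each neighbour. In the libraries labelled knockout its log2 ratio to Bckdk was -0.42, -0.08 and -0.15, so by deposited FPKM it stood below Bckdk in all 3. That order depends on the shared bases. If the reads of Prss53 came only from the 498 bases outside Gm21974, its mean there would be 49.2 FPKM, above the 13.4 FPKM of Bckdk. Since Prss53 was chosen for its fall, no test of this difference is given.

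**Figure D3:**
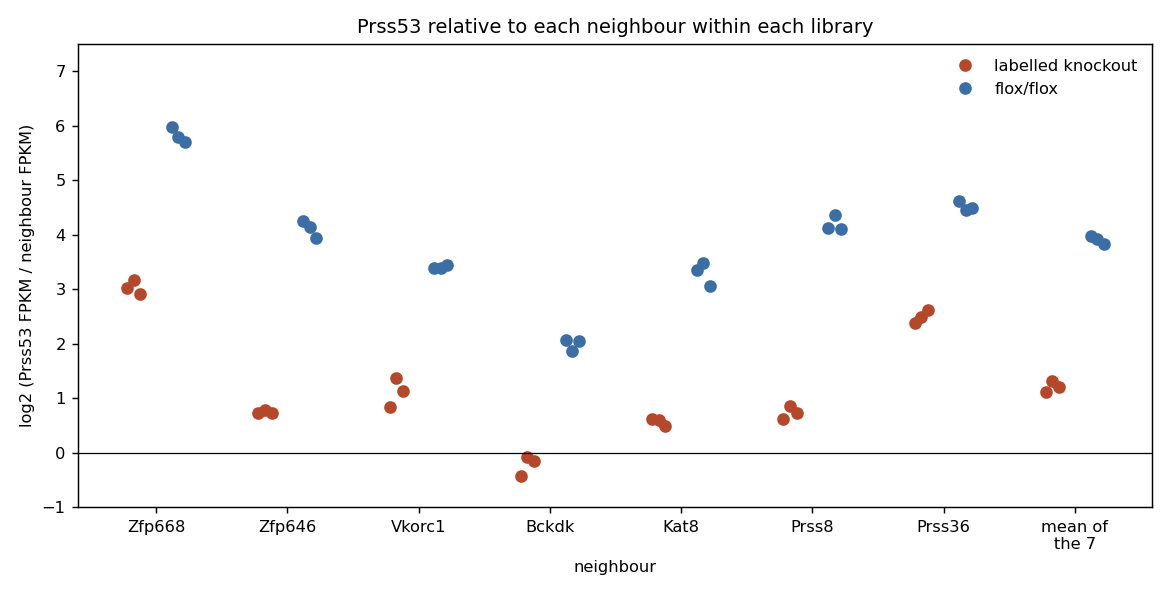
Log2 of the FPKM of Prss53 divided by that of each neighbour, and by the mean of the 7 on the log2 scale, in each library; points are libraries, labelled knockout on the left of each pair and flox/flox on the right. The ratios to the mean of the 7 lie between 1.11 and 1.32 labelled knockout and between 3.83 and 3.97 flox/flox.

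By mean FPKM the flox/flox order was Prss53, Bckdk, Kat8, Vkorc1, Zfp646, Prss8, Prss36 and Zfp668. Kat8 and Vkorc1 overlapped in range there, as did Zfp646 and Prss8. In the libraries labelled knockout the order was Bckdk, Prss53, Kat8, Prss8, Zfp646, Vkorc1, Prss36 and Zfp668, and only Prss8 and Zfp646 overlapped among adjacent genes. The levels of Prss53 and Vkorc1 in these orders carry the limit on shared bases given above. The transcripts also held the sequence GGACT, a common form of the site that the METTL3 complex methylates. It occurred 3 times in the 2134-base transcript of Prss53, or 1.41 per kb, against a median of 1.05 per kb over 11863 tested protein-coding genes. Among the neighbours it ran from 1.04 per kb in Zfp668 to 2.35 per kb in Bckdk, and methylation was not measured.

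Of the other genes tested within 250 kb, Stx4a was the only one that passed besides the neighbours above. Within 50 kb of Prss53, 8 of 11 other genes were tested, which adds only Stx4a, a syntaxin of exocytosis, to the 7. Stx4a fell by 0.34 ± 0.10 on the log2 scale, at 16.2 ± 1.81 FPKM labelled knockout and 20.5 ± 1.29 FPKM flox/flox (SD, n = 3 each, limma adjusted p = 0.035). Within 250 kb, 17 of 41 other genes were tested and 6 passed, 2 higher and 4 lower, or 35.3%, beside the 34.0% of all tested genes. All 6 lay within 50 kb. The median log2 difference of the 17 was -0.07. With own-read scaling 8 of the 17 passed as higher and 1, Prss36, as lower, against 52.4% and 4.87% of all genes under that scaling. Stx4a was then at 0.06 and did not pass (limma adjusted p = 0.62). Its call was also lost with the replicate block, with quantile normalization, without a filter, without replicate 1 or 3 labelled knockout and without any single flox/flox library (limma adjusted p = 0.0539 to 0.12). Pycard, an inflammasome adaptor, had the highest log2 difference, 0.70 ± 0.28, and did not pass (limma adjusted p = 0.0966). The pseudogene Gm19366 had the lowest, -1.19 ± 0.53, and did not pass (limma adjusted p = 0.127). Setd1a, a histone methyltransferase, had a difference of -0.01 and did not pass (limma adjusted p = 0.947). Without the replicates 2 and 3 labelled knockout, 0 of the 17 passed in limma and 7 had an unadjusted p under 0.05.

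**Figure D4:**
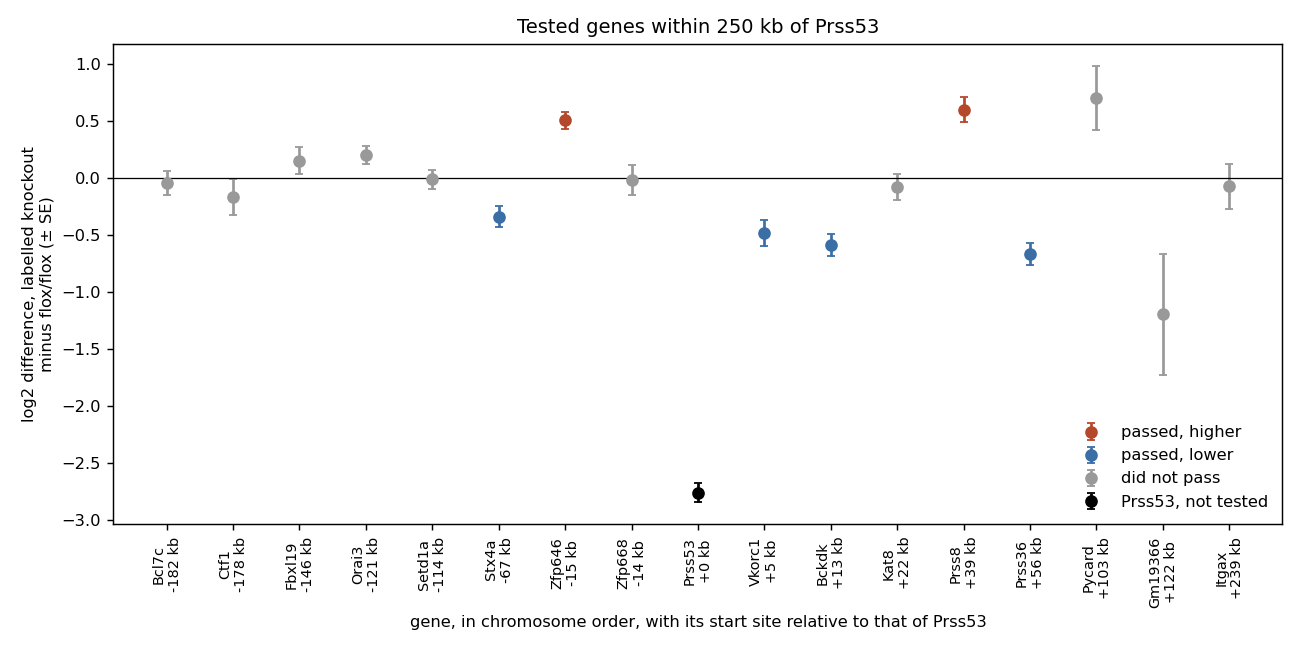
Log2 difference (labelled knockout minus flox/flox, with SE as bars) of the genes tested within 250 kb of Prss53 (1 of the 17 others is not drawn), in chromosome order, with each start site's distance from that of Prss53. Prss53 is at -2.76, and the others drawn lie between -1.19 and 0.70.

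The enzymes of the locus were set beside the other genes of their pathways. In the vitamin K list, 12 of 21 genes were tested, 3 fell, 1 rose and 8 did not pass, with a median log2 difference of -0.25. The 4 of 12 that passed stand beside 34.0% of all tested genes. With own-read scaling 4 rose and 1 fell, beside 52.4% and 4.87% of all genes. Besides Vkorc1, Proc, the clotting regulator protein C, was at 1.81 ± 0.241 FPKM labelled knockout and 3.56 ± 0.612 FPKM flox/flox (SD, n = 3 each) and fell by 0.81 (limma adjusted p = 0.00691). Gas6, a γ-carboxylated ligand of TAM receptors, fell by 0.59 (limma adjusted p = 0.0286). That call was lost with own-read scaling, without a filter, with the replicate block and without any of 4 single libraries: replicates 2 and 3 of either group. Ggcx, the carboxylase itself, had a log2 difference of -0.55 ± 0.26, and Vkorc1l1, the paralogue of Vkorc1, one of -0.13 ± 0.11, and neither passed (limma adjusted p = 0.143 and 0.427). The count of 4 calls was 1 to 4 when single libraries were left out, with 2 without replicate 2 labelled knockout or any single flox/flox library and 1 without replicate 3 labelled knockout.

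In branched-chain amino acid breakdown, 25 of 26 genes were tested, 8 fell, 2 rose and 15 did not pass, with a median log2 difference of -0.07. The 10 of 25 that passed stand beside 34.0% of all tested genes, and with own-read scaling the split was 11 higher and 1 lower, beside 52.4% and 4.87% of all genes. Ivd, isovaleryl-CoA dehydrogenase of leucine breakdown, was at 20.9 ± 3.44 FPKM labelled knockout and 37.1 ± 0.333 FPKM flox/flox (SD, n = 3 each) and fell by 0.83 (limma adjusted p = 0.00315). Bcat2, the mitochondrial aminotransferase, fell by 0.59 (limma adjusted p = 0.0224), alongside Bckdk at -0.58. The call of Bcat2 was lost with own-read scaling, without a filter, without replicate 1 or 3 labelled knockout and without flox/flox replicate 2 or 3. The subunits of the dehydrogenase that Bckdk phosphorylates did not pass: Bckdha was at -0.07, Bckdhb at 0.35 and Dbt at 0.10 on the log2 scale (limma adjusted p = 0.711, 0.11 and 0.611). Ppm1k, the phosphatase that opposes Bckdk, was at 0.07 and did not pass (limma adjusted p = 0.659). The 10 calls became 4 without replicate 3 labelled knockout and 5 without flox/flox replicate 3.

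In the MSL and NSL complexes that hold Kat8, 3 of 14 genes rose, 2 fell and 9 did not pass, with a median log2 difference of 0.11, where 34.0% of all tested genes passed. Kansl1l fell by 0.57 and Phf20l1 by 0.37 (limma adjusted p = 0.00602 and 0.0215), while Wdr5, a scaffold of several chromatin complexes, rose by 0.31 (limma adjusted p = 0.0109). With own-read scaling 9 of the 14 rose, beside 52.4% of all genes, and the other 5 did not pass. Phf20l1 was then at 0.02, and its call was also lost without replicate 1 or 3 of either group. The 5 calls became 3 without replicate 1 labelled knockout, and 2 without replicate 3 labelled knockout or without flox/flox replicate 1 or 3.

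Besides Prss53, the list of trypsin-fold serine proteases and their Kunitz inhibitors held 30 genes, of which 13 were tested, 5 rose, 2 fell and 6 did not pass, with a median log2 difference of 0.36. Over all tested genes 16.9% rose and 17.2% fell. With own-read scaling 10 rose and 1, Prss36, fell, beside 52.4% and 4.87% of all genes. Prss23 had 14.9, 9.95 and 11.8 FPKM labelled knockout and 2.39, 2.94 and 3.00 FPKM flox/flox, and rose by 1.94 ± 0.16 (SE, limma adjusted p = 0.000417). Tmprss2, a transmembrane protease of epithelia, had 8.06, 14.9 and 10.8 FPKM labelled knockout and 4.18, 5.83 and 5.46 FPKM flox/flox, and rose by 1.03 ± 0.22 (limma adjusted p = 0.0145, or 0.0502 without replicate 3 labelled knockout). Its order over the libraries labelled knockout was that of the enterocyte sum, whose part was not tested. Htra1 rose by 0.76 (limma adjusted p = 0.0103). Prss32 had the highest value, 1.96, from 0.576, 5.77 and 2.21 FPKM labelled knockout and 0.288, 0 and 0.294 FPKM flox/flox, and did not pass (limma adjusted p = 0.0515). The 2 that fell were Prss36 and Plat, tissue plasminogen activator, at -0.66 and -0.51. St14, matriptase, which is activated together with prostasin, rose by 0.36 (limma adjusted p = 0.044). That call was lost with quantile normalization, with a filter at 0.1 FPKM, without a filter and with the replicate block. It was also lost in 5 of 6 fits that left out a library, the exception being replicate 1 labelled knockout. The inhibitors of matriptase, Spint1 and Spint2, at 0.59 and 0.16, did not pass (limma adjusted p = 0.0875 and 0.113). The lowest value among the 13, that of Prss36, was -0.66, where Prss53 was at -2.76.

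**Figure D5:**
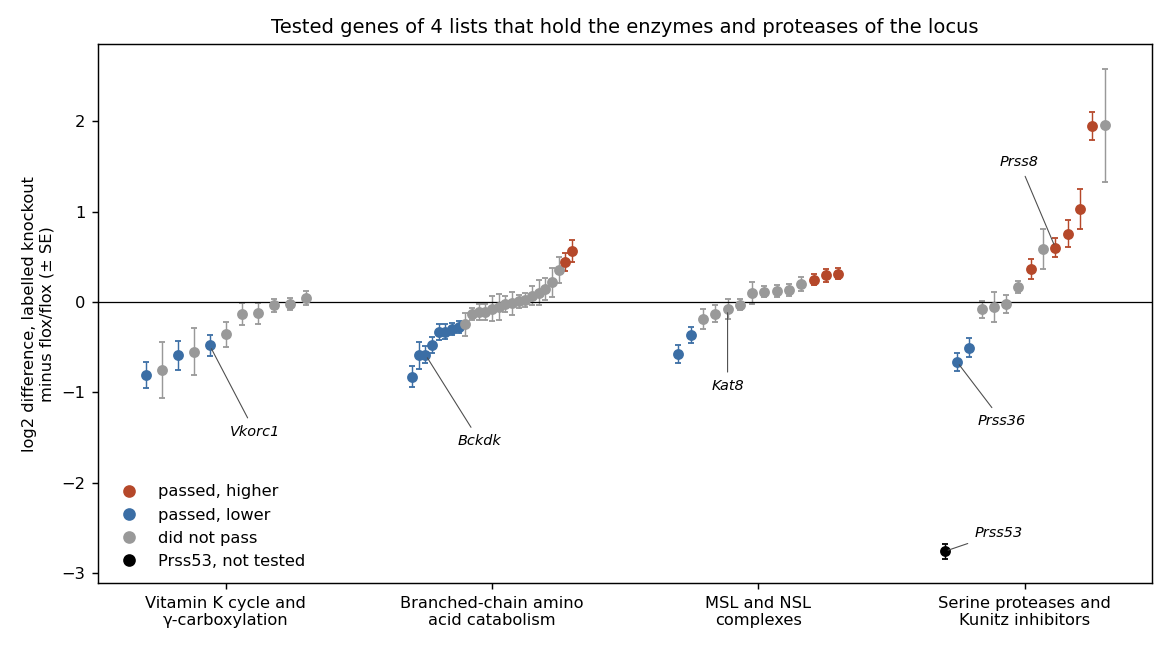
Log2 differences (labelled knockout minus flox/flox, with SE as bars) of the tested genes of 4 lists (1 gene of the vitamin K list is not drawn), ordered by value within each list, with the members of the locus named. Prss53, at -2.76, lies below all other genes shown, which run from -0.83 for Ivd upwards.

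Prss53 was also set beside markers of the cell type in which Cre was driven. The 11 β-cell markers summed to 160897 to 173255 CPM in the libraries labelled knockout and 276762 to 335547 CPM in flox/flox libraries, or 54.2% of the flox/flox mean. These sums rest mostly on Ins1 and Ins2. Without them the list came to 106.0%, which rests on Iapp, and without Iapp as well to 54.0%. Prss53 in the same unit came to 18.9%. Trpm5, a cation channel, fell by 3.64 ± 0.12 (SE, limma adjusted p = 2.15e-05). Mafa, which activates insulin genes, had a log2 difference of -2.77 ± 0.21 (SE, limma adjusted p = 0.000361). Both lay as low as Prss53 and were the lowest of the 11 markers. The median log2 difference of the 11 was -1.07, and the highest was -0.12, for Iapp. By their values over the 6 libraries, each centred on the gene's own mean, the genes with a mean of at least 5 FPKM closest to Prss53 among 7556 were P2ry6, Gm4791, Ppp1r1a, Gad1 and an unnamed locus on chromosome 1. Their root-mean-square distances were 0.11, 0.15, 0.16, 0.17 and 0.19 on the log2 scale, against 1.05 for Prss36, the nearest of the 7 neighbours. Prss36 averaged below 5 FPKM and so was not among the 7556. The distance mostly restates the size of the fall for which Prss53 was picked, so this gap is a description and no test. P2ry6, a receptor for UDP, was at 3.14, 4.11 and 3.24 FPKM labelled knockout and 24.5, 24.5 and 23.7 FPKM flox/flox. Ppp1r1a, an inhibitor of protein phosphatase 1, was at 52.2 ± 4.64 FPKM labelled knockout and 286.3 ± 17.9 FPKM flox/flox (SD, n = 3 each). Gad1, which makes GABA, was at 2.82 ± 0.293 FPKM labelled knockout and 20.2 ± 3.26 FPKM flox/flox. Of these genes P2ry6 is also on chromosome 7.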

How the data were processed

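The authors deposited FPKM values of 54556 genes in 1 table, whose columns, per the file headers, also hold each gene's length and position. The submitters' processing notes name GRCm38.p6, DESeq2 1.16.1, HISAT2 2.0.5 and featureCounts 1.5.0-p3, without their roles, settings or strandedness. Groups and replicate numbers came from the sample titles, and 0 other per-sample columns were left unused. FPKM multiplied by gene length was a whole multiple of 1 step per library (the median of the 300 lowest values above 0) within 0.0538 of a read at most, and these multiples were taken as reads. The divisor of the deposited values was 1.13 to 1.17 times the library's reads when labelled knockout and 0.855 to 0.885 times when flox/flox, so they carry a scaling beyond depth, under which each library has the same median ratio to the geometric mean.

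The test was limma 3.58.1 (R 4.3.3) on genes averaging at least 1 FPKM (lmFit, eBayes with a trend, two-sided) on log2(FPKM + 0.5) with Benjamini-Hochberg adjustment over all of them, at a threshold of 0.05. Fold changes on that scale understate changes of low genes. The fit was also run on simulated reads with few changed genes and scaling by library total. That run does not show how the fit behaves at the share of calls or with the scaling of these data. Exons came from GENCODE M21 (GRCm38), which held 53620 of the gene identifiers, 52055 of them with identical coordinates. The members, lists and alternatives were chosen with earlier results of these data known, and the motifs after the promoter sequence of Prss53 had been read. The named genes are the 8 members, Mettl3, genes overlapping a member, tested genes within 50 kb, the 5 genes closest to Prss53 in pattern, and up to 3 genes past the threshold from each pathway list or 2 from each marker list, by size of the log2 difference. Some genes this rule would name are not reported here. Other genes named (Setd1a, Pycard, Gm19366, Ggcx, Vkorc1l1, Bckdha, Bckdhb, Dbt, Ppm1k, Plat, Prss32, St14, Spint1, Spint2, Alpi, Cdx1, Cdx2, Vil1, Anpep, Lgals4, Itgax and those near Cox6a2) were chosen after their values were seen. Alternatives were the scaling, pseudocount, filter, each library left out, replicates 2 and 3 labelled knockout left out together, and a replicate block.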

Additional observations from a re-analysis of the deposited data

How the results depend on the processing

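Over 15 alternative settings, 462 of 553 recomputed results were scored as unchanged. For Prss53 and the ratio this meant a shift smaller than the SD within groups. For other genes it meant the same side of the threshold, and the same sign if either fit passed. For counts of calls it meant a similar number, whatever the directions. The filter settings and the replicate block cannot move the log2 difference of Prss53, which was scored on that value alone. Its results there were the same by construction but are counted among the 462, so that number overstates how much was put to a test. In amino acid breakdown 2 higher and 8 lower became 11 higher and 1 lower with own-read scaling, and this was scored as unchanged. The calls of Stx4a and Phf20l1 reversed sign with own-read scaling, to 0.059 and 0.016, without passing. The values of single genes outside the members were recomputed after the data had been seen. With own-read scaling there were 8345 calls over all genes, 3 of the 7 neighbours passed, and the MSL and NSL list had 9 calls and the protease list 11. Prss53 was then at -2.36, Vkorc1 at -0.11 and Bckdk at -0.19. A filter at 5 FPKM left 3090 calls over all genes, 2 in the vitamin K list and 3 in the protease list, since fewer genes were tested, and gave no value for Zfp668 or Prss36. With no filter the vitamin K list had 2 calls. Without replicates 2 and 3 labelled knockout together, where the lone library is assumed to vary like the others, limma made 1317 calls over all genes (4431 at an unadjusted p under 0.05). It called 0 of the 7 neighbours, 0 of the 17 genes within 250 kb and 0 of the MSL and NSL list (4, 7 and 4 unadjusted), 1 in the vitamin K list, 4 in amino acid breakdown and 1 protease. Zfp646 was then at 0.47, Vkorc1 at -0.28, Bckdk at -0.44, Prss8 at 0.66 and Prss36 at -0.61, and the ratio of Prss53 to the 7 at -2.80.

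Leaving out single libraries gave 2780 to 4236 calls over all genes, 4 to 5 neighbours, and 4 to 6 genes within 250 kb. The vitamin K list ranged from 1 to 4, amino acid breakdown from 4 to 9, MSL and NSL from 2 to 4 and proteases from 5 to 8. The log2 difference of Prss53 ranged from -2.80 to -2.69, Zfp668 from -0.05 to 0.0057, Zfp646 from 0.47 to 0.54, Vkorc1 from -0.58 to -0.40, Bckdk from -0.66 to -0.53, Kat8 from -0.19 to -0.0059, Prss8 from 0.50 to 0.69 and Prss36 from -0.70 to -0.60, and the ratio from -2.75 to -2.65. The fewest calls came without replicate 3 labelled knockout. The cause of these changes was not tested beyond the filter. Same-numbered libraries of the groups correlated at 0.081, 0.075 and 0.042 in their deviations from the group means, too weak to take the numbers as pairs, although each library correlated best with its own number. With the replicate number as a block there were 4659 calls over all genes and 2 in the vitamin K list, with 5 neighbours passing, and the calls of Stx4a, Gas6 and St14 were lost. Depth limits Vkorc1 most, at 77 to 108 reads per library labelled knockout and 87 to 107 per flox/flox library.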

Other observations

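Beyond the 250 kb window, a second group of genes fell far on the same chromosome; it was noticed after the values were seen. Within 1000 kb of Prss53, 72 of 147 other genes were tested, 11 rose and 16 fell (37.5%, beside 34.0% of all tested genes), and 6 had a log2 difference of -1 or lower, as had 3.14% of all tested genes. Of those 6, 5 lie between 263.4 and 343.5 kb from Prss53. These 5 were picked for their falls, so no test is given for them. Cox6a2, the muscle-type subunit of cytochrome c oxidase, was at 13.97 ± 4.90 FPKM in the libraries labelled knockout and 186.2 ± 9.72 FPKM in flox/flox libraries (SD, n = 3 each), a fall of 3.74 ± 0.22 (SE). Gm44850 was at 3.75 ± 0.619 FPKM labelled knockout and 35.9 ± 5.43 FPKM flox/flox, a fall of 3.10 ± 0.15. The log2 differences of 4931431B13Rik, of Itgad, an integrin, and of 9130023H24Rik were -2.99, -1.69 and -1.01. Itgad, at 0.222 FPKM labelled knockout and 1.85 FPKM flox/flox, passed the filter on low values only through the flox/flox libraries. Itgad spans Cox6a2, Gm44850 and 4931431B13Rik on the opposite strand, so without known strandedness the reads of these genes cannot be told apart. The span of 9130023H24Rik likewise overlaps that of Armc5 on the opposite strand. Gm19366, the nearest of the 6 to Prss53, did not pass (limma adjusted p = 0.127). On the same side, within 250 kb, Vkorc1, Bckdk and Prss36 passed as lower and Prss8 as higher, as given above. Farther out than these, Pycard and Itgax did not pass (limma adjusted p = 0.0966 and 0.801).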
